A study of Mus musculus with 6 samples.

Results

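The 10 genes described here belong to the interleukin-6 (IL-6) family of cytokines and to the STAT3 pathway that these cytokines switch on. They were taken by symbol, 10 of 30281 gene symbols in the table, and comprise the cytokines *Il6*, *Il11* and *Lif*, the receptor subunits *Il6ra*, *Il6st*, *Lifr* and *Osmr*, and the signaling genes *Stat3*, *Socs3* and *Pim1*. RNA-Seq was performed on 6 mouse libraries with 1 library per condition. A pair of libraries came from mouse embryo fibroblasts (MEFs), untreated, of the genotypes Tsc2+/+ p53-/- and Tsc2-/- p53-/-, so both are labelled p53-/-. The other 4 came from 2 kidney epithelial lines labelled Tsc2-null, MKOC and TJ, the latter derived from a secondary tumor in C57BL6 mice, each left untreated or given 100 nM rapamycin for 18 h, and the treatment protocol names serum-free medium with diluent as the control. *Tsc2* encodes a brake on the growth kinase complex mTORC1, and rapamycin inhibits that complex.

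IL-6, IL-11 and LIF are secreted proteins. Each binds its own receptor chain at the cell surface (*Il6ra* for IL-6, *Lifr* for LIF, and *Osmr* for the related oncostatin M), and all of them signal through the shared chain gp130, encoded by *Il6st*. JAK kinases bound to gp130 then phosphorylate the transcription factor STAT3, which enters the nucleus and raises its targets, among them *Socs3*, whose product shuts the receptor down again, and *Pim1*, a serine/threonine kinase that favors survival. Much of this regulation is by phosphorylation, which RNA levels do not show.

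In the kidney lines, rapamycin was accompanied by higher *Pim1* (2.93-fold), *Lif* (2.49-fold), *Il6ra* (1.47-fold), *Il6st* (1.46-fold) and *Osmr* (1.46-fold) RNA, against 17.5% of all genes called higher, while *Stat3* and *Socs3* RNA did not pass the test. Without the cell line as a block only *Pim1* kept its call, and *Osmr* also lost its call with DESeq2 and limma. In the MEFs, 6 of the 10 genes were at least 2-fold higher in the library labelled Tsc2-/- than in the Tsc2+/+ library. Of the 12771 genes with at least 1 TPM in either library, 9 of the 10 among them, 25.2% were that much higher. The receptor *Lifr* and the cytokine *Lif* were farthest apart with 1 TPM added, and *Lif* reached 1 TPM in the Tsc2-/- library alone. The count was 3 after the libraries were scaled to a median ratio of 1, against 15.8% of the 12771 genes, and the MEF comparison has no replicates.

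The proximal promoters of 3 of the genes are shown because they set side by side the classical feedback target of STAT3 and the genes with the largest rapamycin response. All are from RefSeq on GRCm38.p6, 5′ to 3′ on the gene's strand, and run from base -250 to base -101 relative to the annotated transcription start, with matches to TTCNNNGAA (the palindrome STAT factors bind) or TGANTCA (the AP-1 motif) in capitals.
Socs3, chr11:117969467-117969616, minus strand: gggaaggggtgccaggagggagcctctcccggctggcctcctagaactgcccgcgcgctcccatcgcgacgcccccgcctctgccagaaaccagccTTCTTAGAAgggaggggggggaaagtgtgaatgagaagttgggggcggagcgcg
Lif, chr11:4257318-4257467, plus strand: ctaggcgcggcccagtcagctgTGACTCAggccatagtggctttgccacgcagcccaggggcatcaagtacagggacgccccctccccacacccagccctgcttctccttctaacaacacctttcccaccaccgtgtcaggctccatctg
Pim1, chr17:29490535-29490684, plus strand: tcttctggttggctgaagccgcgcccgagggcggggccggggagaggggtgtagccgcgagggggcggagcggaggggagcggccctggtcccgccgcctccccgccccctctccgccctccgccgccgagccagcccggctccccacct
The *Socs3* window held TTCTTAGAA at -154, the *Lif* window held TGACTCA at -228, and the 250 bases upstream of this *Pim1* start held neither motif. Over the 250 bases upstream of all 13 annotated starts of the 10 genes, searched on both strands, TTCNNNGAA was found in 1, against 7.02% of 32851 promoters of the same length, and TGANTCA in 3 (*Il6*, *Il11* and *Lif*), against 6.75%. No window held both motifs, so their matches did not overlap, and a match in letters is no evidence of binding.

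Library depth ranged from 22887020 to 37505004 estimated counts. All values below in TPM (a level scaled to the same total in each library and corrected for transcript length, so that genes can be compared) are sums over a gene's transcripts, and a 95% interval in TPM covers counting error only. *Tsc2* RNA, the check of the labels, amounted to 22.6 TPM in Tsc2+/+ MEFs, against 10.5 TPM in the library labelled Tsc2-/-, and the kidney lines labelled Tsc2-null had 49.1 (MKOC) and 44.0 TPM (TJ) untreated and 19.5 and 19.1 TPM with rapamycin. These sums do not show which exons the reads came from and so do not check the deletions, and the libraries are named by their labels throughout. *Tsc2* itself was lower with rapamycin (log2 fold change -1.27, SE 0.10, edgeR adjusted p = 2.3e-05). Of 11 kidney epithelial markers, 9 reached 1 TPM in each kidney library, with *Epcam* at or near 0 in all 4, and their summed level was higher with rapamycin (1730 to 2654 TPM in MKOC, 1909 to 2967 TPM in TJ). Most of that rise was in the keratins *Krt8*, *Krt7* and *Krt18*. The lineage factors *Pax8* (141.2 to 121.2 TPM) and *Pax2* (15.0 to 12.2 TPM) were lower with rapamycin in MKOC and higher in TJ. Of 10 fibroblast markers, 8 and 9 reached 1 TPM in the MEFs and 2 or 3 in the kidney libraries, with *Vim* far the highest. Of 9 mesothelial markers, 1 reached 1 TPM in Tsc2+/+ MEFs (summed level 2.66 TPM) and 7 in Tsc2-/- MEFs (506 TPM), where *Upk3b* stood at 154 TPM against 0 and *Calb2* was at 0 in both. Of 9 leukocyte markers, 2 or 3 reached 1 TPM in any library (summed level 6.15 to 54.9 TPM), and *Ptprc*, *Adgre1* and *Tyrobp* were at or near 0 in all 6. Those that reached it in the kidney libraries were *Csf1r* (11.3 to 30.3 TPM), *Cd14* (6.76 to 19.4 TPM) and *Cd68* (4.48 to 8.01 TPM). Of 6 endothelial markers, at most 1 reached 1 TPM in any library (0.370 to 3.76 TPM).

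**Figure D1:**
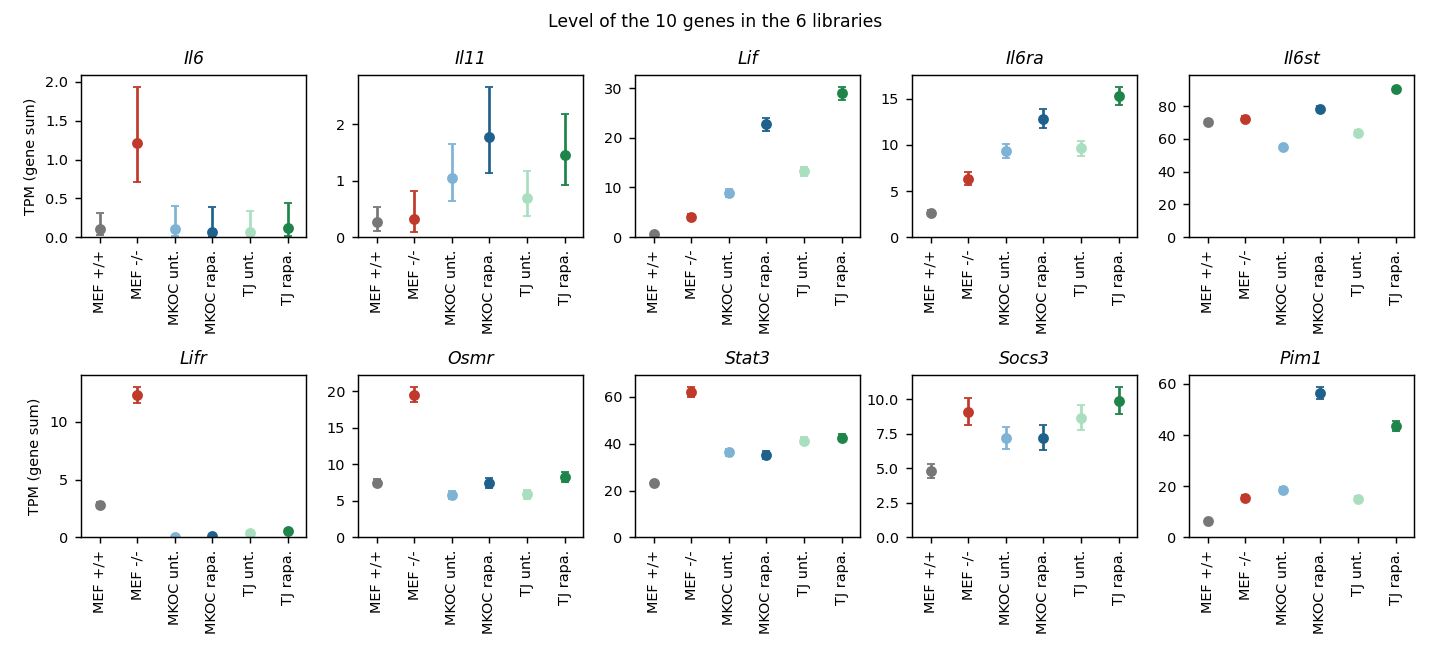
TPM (y axis, a separate linear scale from 0 for each gene) of the 10 genes in each of the 6 libraries (x axis; unt., untreated; rapa., rapamycin), with bars for the 95% exact Poisson interval of the count, which covers counting error only. *Lif* and *Pim1* stand highest in the 2 rapamycin libraries, and *Lifr*, *Osmr*, *Stat3* and *Il6* in Tsc2-/- MEFs.

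Among the cytokines, *Il6* (chromosome 5, 30013114 to 30019981, plus strand, GRCm38) was barely present. Its level was 0.107 TPM in Tsc2+/+ MEFs, 1.21 in Tsc2-/- MEFs, 0.110 and 0.0708 in untreated and rapamycin-treated MKOC, and 0.0612 and 0.122 in untreated and treated TJ. Only the Tsc2-/- MEF library, with 17 estimated counts, exceeded the floor of 3 counts, and the other 5 libraries had 1 to 3 counts and overlapping intervals. *Il6* was removed by the filter on low counts and entered the rapamycin test only where no filter was applied, in which it was not called. No fold is given for the kidney lines.

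*Il11* (chromosome 7, 4772373 to 4782859, minus strand) was also low, at 0.261 (Tsc2+/+) and 0.319 TPM (Tsc2-/-) in the MEFs, 1.05 and 1.78 TPM in untreated and treated MKOC, and 0.686 and 1.45 TPM in untreated and treated TJ. Both treated kidney libraries lay above both untreated ones, but every library's interval overlapped that of its neighbor in the order, on 4 to 23 counts. The log2 fold change with rapamycin was 0.71 (SE 0.39, edgeR adjusted p = 0.18), which did not pass the test.

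*Lif* (chromosome 11, 4257557 to 4272514, plus strand) encodes leukemia inhibitory factor and was the most abundant of the 3 cytokines in every library. It stood at 0.650 TPM in Tsc2+/+ MEFs, 4.09 in Tsc2-/- MEFs, 8.81 in untreated and 22.7 in treated MKOC, and 13.2 in untreated and 28.9 in treated TJ. No neighboring intervals in this order overlapped, both kidney lines lay above both MEF libraries, and both treated libraries lay above both untreated ones. The rapamycin difference was 1.32 on the log2 scale (SE 0.14, edgeR adjusted p = 0.00011), and 2.40% of the 12952 genes tested had a higher fold change.

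The *Lif* transcripts differ in their first exon, and the rise with rapamycin was uneven between them. ENSMUST00000066283, protein coding, begins at the outer exon 1 (chromosome 11, 4257557 to 4257688), just downstream of the *Lif* promoter printed above, and joins 4 exons. It was estimated at 0 TPM in Tsc2+/+ MEFs, 0.283 in Tsc2-/- MEFs, 2.89 and 12.9 in untreated and treated MKOC, and 6.30 and 16.9 in untreated and treated TJ. ENSMUST00000040750, also protein coding, begins at an inner exon 1 (4267095 to 4267119) and joins 3 exons. It stood at 0.650, 2.88, 3.97, 7.60, 6.12 and 9.01 TPM in the same order of libraries. The treated-to-untreated ratio of the outer-exon transcript was 4.47 in MKOC (95% interval 3.84 to 5.20) and 2.69 in TJ (2.41 to 3.005), and that of the inner-exon transcript was 1.91 (1.65 to 2.23) and 1.47 (1.29 to 1.68). The intervals of the 2 transcripts did not overlap in either line. Its share of *Lif* TPM was 32.8% before and 56.9% after rapamycin in MKOC, and 47.6% and 58.6% in TJ, for the outer-exon transcript. The transcripts share their last 2 exons, so the split between them is an estimate by Kallisto whose own error the intervals leave out. The third, ENSMUST00000154927, is a short processed transcript with 3 to 11 counts in the libraries where it was seen.

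**Figure D2:**
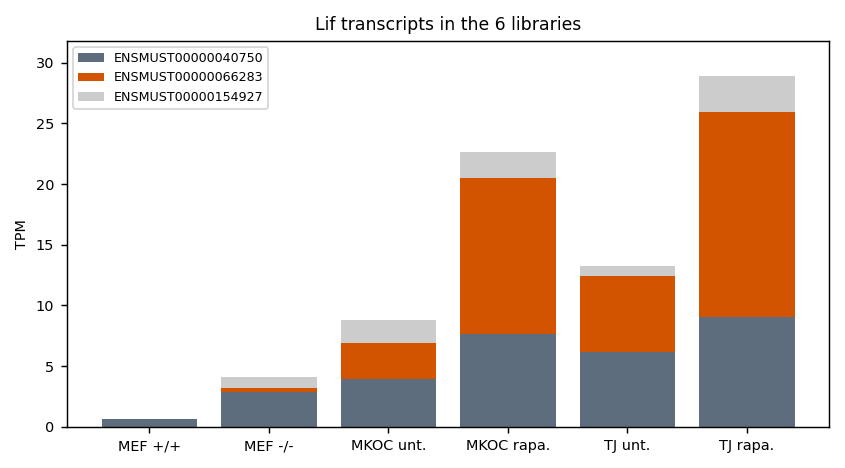
Stacked TPM (y axis, from 0) of the 3 *Lif* transcripts in the 6 libraries (x axis), without error bars. The outer-exon transcript ENSMUST00000066283 (orange) goes from 2.89 to 12.9 TPM with rapamycin in MKOC and from 6.30 to 16.9 TPM in TJ, and is absent or nearly so in the MEFs.

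Among the receptor chains, *Il6st* (gp130, chromosome 13, 112464070 to 112510086, plus strand) was the most abundant of all 10 genes in every library. Its level was 70.5 TPM in the Tsc2+/+ and 72.5 TPM in the Tsc2-/- MEF library, whose intervals overlapped, then 55.3 and 78.6 TPM in untreated and treated MKOC, and 63.7 and 90.3 TPM in untreated and treated TJ. The untreated kidney libraries were the lowest of the 6 and the treated ones the highest. The rapamycin difference was 0.55 on the log2 scale (SE 0.10, edgeR adjusted p = 0.0025), with TPM ratios of 1.42 in both lines.

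*Il6ra* (chromosome 3, 89864059 to 89913196, minus strand), the chain that binds IL-6, stood at 2.64 TPM in Tsc2+/+ MEFs, 6.31 in Tsc2-/- MEFs, 9.30 and 12.9 in untreated and treated MKOC, and 9.61 and 15.3 in untreated and treated TJ. Only the 2 untreated kidney libraries could not be told apart by their intervals, and both treated ones lay above them. The log2 fold change with rapamycin was 0.56 (SE 0.13, edgeR adjusted p = 0.0069).

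*Osmr* (chromosome 15, 6813577 to 6874969, minus strand), the oncostatin M receptor chain, had 7.46 TPM in Tsc2+/+ MEFs, 19.5 in Tsc2-/- MEFs, 5.74 and 7.44 in untreated and treated MKOC, and 5.89 and 8.28 in untreated and treated TJ. The Tsc2-/- MEF library stood apart from the other 5, and the treated kidney libraries overlapped with Tsc2+/+ MEFs. The log2 fold change with rapamycin was 0.54 (SE 0.14, edgeR adjusted p = 0.012), a call that was lost with DESeq2 (adjusted p = 0.058) and with limma on log2 TPM (adjusted p = 0.11).

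*Lifr* (chromosome 15, 7090614 to 7197489, plus strand), the receptor chain for LIF, was high in the MEFs and low in the kidney lines, whereas *Lif* was higher in the kidney lines. It was 2.78 TPM in Tsc2+/+ MEFs, reached 12.3 in the Tsc2-/- library, and was 0.0671 and 0.0860 in untreated and treated MKOC and 0.364 and 0.538 in untreated and treated TJ. All 4 kidney libraries were under 1 TPM, on 4 to 42 counts, and no kidney interval reached either MEF library. With rapamycin the log2 fold change was 0.21 (SE 0.43, edgeR adjusted p = 0.74), and its 95% interval in fold ran from 0.595 to 2.25, which does not exclude a 2-fold rise.

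Among the signaling genes, *Stat3* (chromosome 11, 100885098 to 100939540, minus strand) was lowest of all 6 libraries in Tsc2+/+ MEFs, at 23.1 TPM, and highest in Tsc2-/- MEFs, at 62.0 TPM. It was 36.2 and 35.1 TPM in untreated and treated MKOC and 41.2 and 42.5 TPM in untreated and treated TJ, and within each line the intervals overlapped. The log2 fold change with rapamycin was -0.01 (SE 0.11, edgeR adjusted p = 0.94), with a 95% interval in fold of 0.842 to 1.17. An exon of *Stat3* overlaps *Stat5a* on the other strand, and *Stat5a* stood between 6.68 and 11.2 TPM.

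*Socs3* (chromosome 11, 117966079 to 117970047, minus strand), whose protein inhibits gp130 signaling, had 4.82 TPM in Tsc2+/+ MEFs, 9.07 in Tsc2-/- MEFs, 7.18 in both MKOC libraries, and 8.64 and 9.89 in untreated and treated TJ. Only the Tsc2+/+ MEF library was separated from its neighbor in the order. The log2 fold change with rapamycin was 0.08 (SE 0.15, edgeR adjusted p = 0.71), with a 95% interval in fold of 0.840 to 1.33.

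*Pim1* (chromosome 17, 29490753 to 29496112, plus strand) showed the largest rapamycin difference of the 10. It stood at 6.35 TPM in Tsc2+/+ MEFs, 15.4 in Tsc2-/- MEFs, 18.6 and 56.4 in untreated and treated MKOC, and 15.2 and 43.6 in untreated and treated TJ. Both treated libraries lay far above the other 4, of which untreated TJ and Tsc2-/- MEFs overlapped. The log2 fold change was 1.55 (SE 0.11, edgeR adjusted p = 1.4e-05), with TPM ratios of 3.03 in MKOC (95% interval 2.80 to 3.27) and 2.87 in TJ (2.63 to 3.14), and 1.45% of the genes tested had a higher fold change.

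For the question of how mTORC1 inhibition moves these genes, the 2 lines served as the replicates of a single fit over 12952 genes. In it, 9 of the 10 genes were tested, 5 were called higher and 0 lower, against 17.5% of all genes called higher and 17.4% called lower. At an unadjusted p under 0.05 the same fit also had 0 of the 9 lower, as did DESeq2, and limma had 0 of the 8 it tested. The median log2 fold change of the 9 was 0.55, and that of all genes 0.02. Taken line by line with 1 TPM added, *Pim1* and *Lif* were at least 2-fold higher in both lines, against 3.8% of genes higher and 2.42% lower in MKOC and 3.42% and 2.24% in TJ. Without the line as a block, where 4.32% of all genes were called higher and 5.53% lower, only *Pim1* kept its call (adjusted p = 0.019), while *Lif* (0.052), *Il6st* (0.060), *Il6ra* (0.066) and *Osmr* (0.079) missed it. The fit has 1 residual degree of freedom, nothing in the labels says that the libraries came from separate cultures, and p-values measure only the spread between these libraries. In bulk RNA, fewer cells of a type and less RNA per cell cannot be told apart. In both lines the summed TPM of the kidney epithelial markers was also higher with rapamycin, mostly through *Krt8*, *Krt7* and *Krt18*. Those of the fibroblast markers (4703 to 7575 in MKOC and 3617 to 5305 in TJ, nearly all *Vim*) and the mesothelial markers (80.4 to 151.1 and 70.3 to 98.5, nearly all *Msln*) were higher as well. So was that of the leukocyte markers (25.7 to 33.4 and 43.7 to 54.9), although *Cd68* was lower in both lines (7.08 to 5.33 and 8.01 to 4.48). The part of these markers in the results was not tested.

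**Figure D3:**
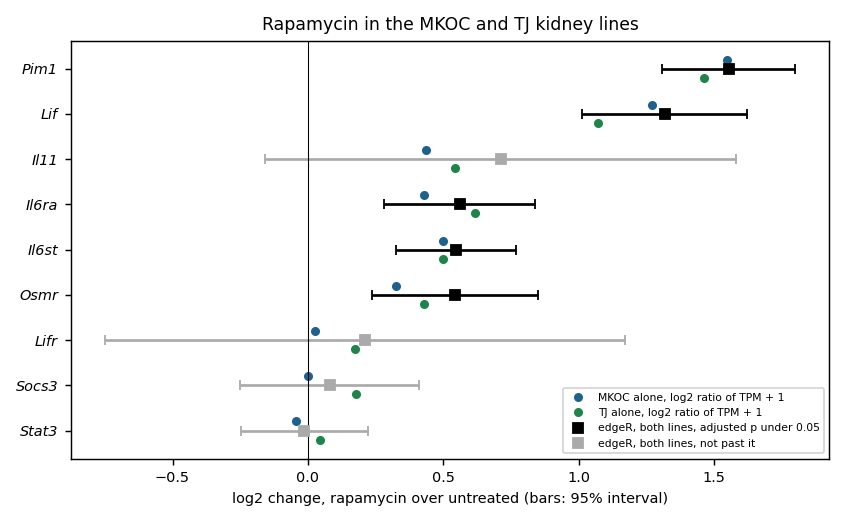
Log2 change with rapamycin (x axis) for the 9 tested genes (y axis), with squares for the edgeR estimate over both lines, bars for its 95% interval, and dots for the log2 ratio of TPM with 1 added in MKOC (blue) and TJ (green). The intervals of *Pim1*, *Lif*, *Il6ra*, *Il6st* and *Osmr* lie above 0, and those of *Il11*, *Lifr*, *Socs3* and *Stat3* span it.

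Other genes of the pathway also changed with rapamycin, and the counts that follow stand against 17.5% of all genes called higher and 17.4% called lower. Counts without the cell line as a block stand against 4.32% and 5.53%. Among 4 tested ligands of the family, *Clcf1*, a gp130 cytokine, was higher (log2 fold change 1.34, SE 0.11) and 0 were lower, and the list's median was -0.24. *Cntf* had a log2 fold change of -0.83 that missed the threshold (SE 0.30, edgeR adjusted p = 0.057). With limma 1 of the 4 was called lower, against 14.4% of all genes, and with no filter 1 of 7, against 12.3%. The 1 tested further receptor, *Il11ra1*, had a log2 fold change of -0.06 and was not called. Of 9 JAK kinases and STAT factors, 5 were higher, led by the kinases *Tyk2* (0.76), *Jak3* (0.74) and *Jak2* (0.53), and 1 was lower, the kinase *Jak1* (log2 fold change -0.38), with a list median of 0.40. Without the block only *Tyk2* of these remained called, and *Jak3* also lost its call with DESeq2 and limma.

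Of 15 negative regulators and phosphatases, 4 were higher and 3 lower, with a median of 0.01 that lay close to the 0.02 of all genes. The higher ones were led by *Cish*, a SOCS family inhibitor and target of STAT5 (log2 fold change 1.69, SE 0.21), the phosphatase *Ptpn6* (0.71) and *Socs2* (0.43), and the lower ones were *Socs4* (-0.53), the phosphatase *Ptpn2* (-0.49) and *Pias2* (-0.46). Without the block 1 was higher and 1 lower. With DESeq2 2 were higher and 2 lower, without the higher *Socs2* and *Pias3* and the lower *Pias2* (the last also lost with limma). Of 19 tested genes on a list of known STAT3 targets, 8 were higher and 3 lower, with a median of 0.38. The AP-1 subunit *Junb* (1.37), the receptor *Il4ra* (0.74) and the cell cycle gene *Ccnd1* (0.71) led the higher ones, and the angiogenic factor *Vegfa* (-1.55), the hypoxia factor *Hif1a* (-1.46) and *Klf4* (-0.68) were the lower ones. Without the block, 0 of the 19 were higher, against 4.32% of all genes, and the same 3 were lower, against 5.53%.

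The genes known to regulate *Il6* transcription or RNA stability changed mostly one way, with 11 of 13 higher, 0 lower and a median of 0.65. Those with the largest changes were *Tnfaip3* (log2 fold change 1.42, SE 0.13) and *Nfkbia* (0.82, SE 0.12), which restrain NF-kB, and *Zc3h12a* (0.91, SE 0.15), an RNase that degrades *Il6* mRNA. Without the block 4 of the 13 were called higher, against 4.32% of all genes. *Tnfaip3* was among them, whereas *Nfkbia* (edgeR adjusted p = 0.25) and *Zc3h12a* (0.18) lost their calls. *Tnfaip3* went from 7.67 to 24.3 TPM in MKOC and from 12.6 to 28.6 TPM in TJ, while *Il6* stayed at 1 or 2 counts in all 4 libraries. Of the other 2 PIM kinases and 2 receptor-shedding proteases of the ADAM family, *Pim3* was higher (0.63, SE 0.12) and lost its call without the block, and the list median was 0.03.

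**Figure D4:**
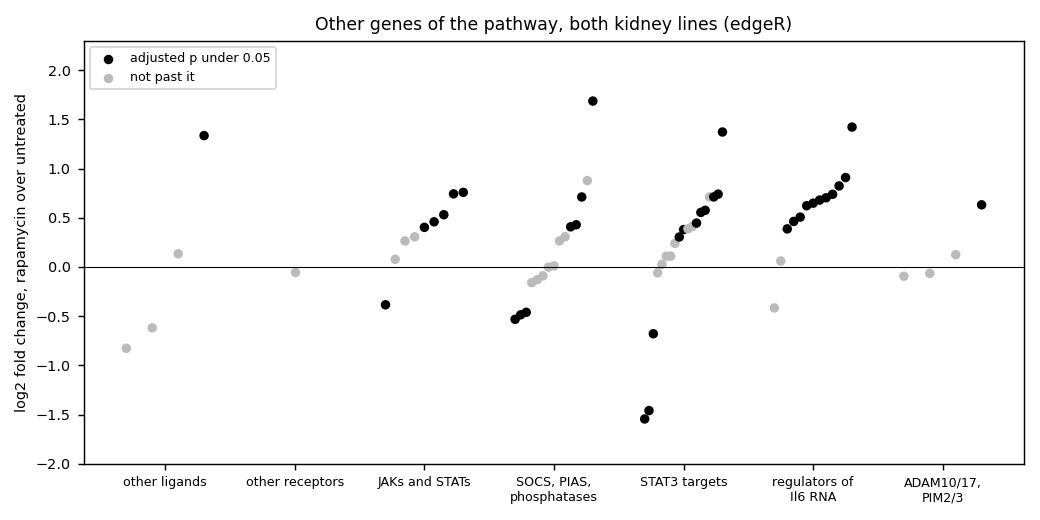
edgeR log2 fold change with rapamycin (y axis) of each tested gene of 7 pathway lists (x axis), sorted within a list, black where the adjusted p is under 0.05. The regulators of *Il6* RNA hold 11 black points above 0 and 0 below, whereas the SOCS, PIAS and phosphatase list holds 4 above and 3 below.

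The 2 kidney lines differed from each other in few of the genes. In TJ against MKOC, 2 of the 9 tested were higher and 0 lower, against 5.47% and 3.32% of all genes. *Lifr* was higher in TJ by 2.65 on the log2 scale (SE 0.46, edgeR adjusted p = 0.0068), on 4 and 7 counts in the MKOC libraries and 31 and 42 in the TJ libraries, and it passed the filter on low counts through the TJ libraries alone. *Lif* was higher in TJ by 0.56 (SE 0.14, edgeR adjusted p = 0.030), at 13.2 against 8.81 TPM untreated and 28.9 against 22.7 TPM with rapamycin. *Pim1* was 0.814 times its MKOC level untreated and 0.772 times with rapamycin, a log2 fold change of -0.36 that missed the threshold (edgeR adjusted p = 0.073, and an unadjusted p under 0.05). *Socs3* had a log2 fold change of 0.34 (SE 0.15, adjusted p = 0.20). The calls for *Lifr* and *Lif* were lost with DESeq2 (adjusted p = 0.072 and 0.052), *Lif* was not called with limma (0.12), where *Lifr* was not tested, and no gene at all was called when treatment was left out of the fit. The median log2 difference of the 9 was 0.18, against -0.01 over all genes.

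Against 5.47% of all genes higher and 3.32% lower, the known STAT3 targets had 6 of 19 genes higher and 2 lower in TJ, with the acute-phase genes *Saa3* (log2 difference 3.04, SE 0.14) and *Lcn2* (1.88, SE 0.17) and the adhesion molecule *Icam1* (1.44, SE 0.20) farthest up among the genes called and *Timp1* (-0.70) and *Ccnd1* (-0.47) down. With limma 3 were higher and 1 lower, against 2.63% and 1.14% of all genes, and *Ccnd1* lost its call with limma, RLE size factors and upper-quartile scaling. Of the regulators of *Il6* RNA, 5 were higher and 0 lower, led by *Nfkbia* (0.98), *Zc3h12a* (0.89) and *Zc3h12c* (0.75). The kinase *Jak2* (0.81) was higher, *Ptpn6* (0.57) was higher and *Ptpn11* (-0.45) lower among the phosphatases, and *Pim3* (0.48) was higher. Of these, *Ptpn6* lost its call with RLE size factors, DESeq2 and limma, *Pim3* with DESeq2 and limma, and *Ptpn11* and *Zc3h12c* with limma. List medians were 0.29 for the STAT3 targets, 0.35 for the regulators of *Il6* RNA, 0.22 for the JAKs and STATs, 0.05 for the negative regulators, 0.27 for the ADAM and PIM genes and 0.02 for the other ligands. *Il11ra1* was not called (0.18).

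The MEF comparison asks what accompanies the Tsc2 genotype. Where both MEF libraries had 10 TPM or more, the ratio had a median of 1.31 over genes, a shift of 0.39 on the log2 scale. With 1 TPM added, 6 of the 10 were at least 2-fold higher and 0 lower. The shares were 25.2% and 5.18% of the 12771 genes with at least 1 TPM in either library, a set without *Il11*. *Lifr* had a TPM ratio of 4.43 (95% interval 3.999 to 4.91), *Lif* 6.30 (4.78 to 8.36), *Stat3* 2.69 (2.55 to 2.83), *Osmr* 2.62 (2.41 to 2.86), *Pim1* 2.42 (2.14 to 2.73) and *Il6ra* 2.39 (2.02 to 2.83). In Tsc2-/- MEFs 22.7% of *Lif* TPM came from the short processed transcript ENSMUST00000154927, on 3 counts against 0 in Tsc2+/+ MEFs. The interval of *Lif* does not cover the error of those few counts. For the inner-exon coding transcript ENSMUST00000040750 alone the ratio was 4.44 (3.34 to 5.91). *Il6ra* lay just past the 2-fold line with 1 TPM added (log2 ratio 1.01) and *Il6* just short of it, at 0.999. The TPM ratio of *Il6* was 11.4 on 17 against 3 counts (3.29 to 60.5).

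*Socs3* had a TPM ratio of 1.88 (1.62 to 2.19), *Il11* 1.22 on 4 against 7 counts (0.264 to 4.83) and *Il6st* 1.03 (0.999 to 1.06). After scaling to a median ratio of 1, *Lifr* (log2 ratio 1.46), *Lif* (1.32) and *Stat3* (1.01) remained past 2-fold, against 15.8% of genes higher and 8.21% lower, and *Il6st* (-0.34) and *Il11* (-0.02) turned to lower. On CPM, *Lif*, *Lifr* and *Osmr* passed 2-fold, against 15.3% of genes higher and 9.28% lower, and *Stat3* did not (0.91). Over the 9 genes with at least 1 TPM in either library, among them *Il6* and *Lif*, which reached it in the Tsc2-/- library alone and so had to be higher there, the median log2 ratio was 1.15 against 0.45 over all genes, and 0.80 against 0.09 after scaling. The intervals cover counting error only, and how far MEF libraries of 1 genotype differ was not measured. The mesothelial markers (1 of 9 at 1 TPM against 7 of 9, summed level 2.66 against 506 TPM) moved with the genotype in the same direction. So did the kidney epithelial markers (0 of 11 at 1 TPM against 3 of 11, summed level 0.467 against 85.7 TPM, mostly *Krt19* and *Krt18*) and the leukocyte markers (6.15 against 18.2 TPM). The summed level of the fibroblast markers went the other way (5357 TPM in Tsc2+/+ against 3636 in Tsc2-/- MEFs), mostly through *Vim* at 3522 against 1118 TPM. *Col1a2* (996.3 against 788.0 TPM), *Pdgfrb* and *Lum* were lower too. *Dcn* (7.08 against 422.4 TPM), *Col3a1* (503.2 against 750.9), *Col1a1* (273.9 against 474.2), *Pdgfra*, *Twist1* and *Thy1* were higher in Tsc2-/- MEFs. The part of all these marker lists in the differences was not tested.

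**Figure D5:**
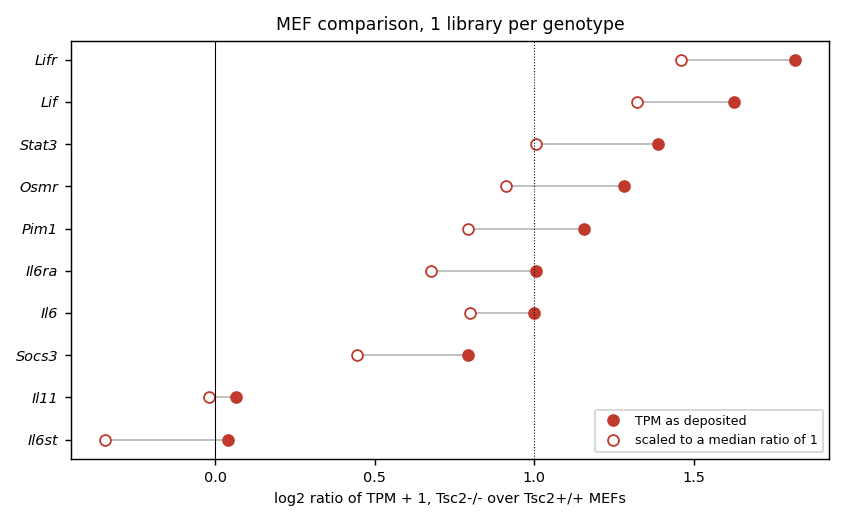
Log2 ratio of TPM with 1 added, Tsc2-/- over Tsc2+/+ MEFs (x axis), for the 10 genes (y axis), as deposited (filled) and scaled to a median ratio of 1 (open), with a dotted line at 2-fold and no error bars, as there is 1 library per genotype. As deposited 6 genes lie past the line, and after scaling 3 do.

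Among the wider pathway in the MEFs, 11 of 21 known STAT3 targets with at least 1 TPM were at least 2-fold higher and 0 lower, against 25.2% and 5.18% of all genes. After scaling 8 were higher and 1, *Myc*, lower, against 15.8% and 8.21%. *Steap4*, *Icam1* and *Cebpd* are in this count through the Tsc2-/- library alone, being under 1 TPM in Tsc2+/+ MEFs. With 1 TPM added, the largest ratios were those of *Steap4* (19.3 against 0.322 TPM), the acute-phase gene *Saa3* (1119 against 150.1 TPM) and *Icam1* (7.45 against 0.364 TPM). *Socs2* was higher (13.7 against 1.30 TPM), as was *Ptpn11* (101.8 against 45.7 TPM), which fell short after scaling. Of 4 ligands with at least 1 TPM, 1 was higher, *Cntf* (5.45 against 1.86 TPM, short of 2-fold after scaling), and 1 lower. Of 9 JAKs and STATs, 0 were higher and 1 lower, and after scaling 0 and 2. The receptor *Il11ra1* was lower (31.1 against 64.5 TPM). Of the 13 regulators of *Il6* RNA and of the 4 ADAM and PIM genes, 0 passed 2-fold in either direction. The list medians on the log2 scale were 1.04 for the STAT3 targets, 0.39 for the JAKs and STATs, 0.66 for the negative regulators, 0.81 for the ligands, -0.16 for the receptors, 0.48 for the regulators of *Il6* RNA and 0.30 for the ADAM and PIM genes, against 0.45 for all genes.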

How the data were processed

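Poly(A)-selected stranded libraries of 6 mouse cell samples were sequenced as paired-end reads. According to the methods and the labels, the authors trimmed the reads with Trimmomatic and quantified transcripts with Kallisto. The deposited table gives lengths, estimated counts and TPM of 88198 mouse transcripts, although the methods name a human transcriptome. A second deposited table holds the authors' fold change ratios, of which none was used, and supplied the gene symbols. The 1006 transcripts without a symbol were left out, and for 8 with more than 1 symbol the first was used. Estimated counts and TPM were summed per symbol, and all 44 transcripts of the 10 genes were in GENCODE M21 (GRCm38) with the same symbol.

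For the kidney lines, summed counts were rounded, genes were kept by filterByExpr, TMM factors were applied and the test was that of edgeR 4.0.16 (quasi-likelihood, R 4.3.3), with the cell line and the treatment as terms and Benjamini-Hochberg adjustment at 0.05 over all genes tested. The labels name the line of each library, which pairs the libraries. The libraries of a line deviated from their treatment means with a correlation of 0.56 (12952 genes). The MEFs, with 1 library per genotype, were compared by log2 ratios of TPM with 1 added, and at least 2-fold was the rule of size. Intervals are 95% exact Poisson or binomial intervals of the counts, and 3 counts were taken as the floor. Alternatives were DESeq2 1.42.0, limma 3.58.1, other normalizations, no filter, no block, other pseudocounts, scaling, CPM and leaving out short transcripts. Named genes are the 10 genes and, of each list and comparison, up to 3 per direction with the largest fold. *Jak1*, *Il11ra1*, *Pias3*, *Myc* and *Cebpd* were also named, as genes behind a count, after their values were seen. Some genes of the lists are not reported here. The genes and lists were chosen with earlier results of these data known. The steps were tested on simulated data, and figures were drawn with matplotlib 3.10.9.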

Additional observations from a re-analysis of the deposited data

Results flagged for a closer look

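The log2 ratio of *Stat3* TPM (1 added), rapamycin over untreated, had opposite signs in the 2 kidney lines, -0.043 in MKOC and 0.043 in TJ. With 1 library per line and treatment, the difference between the lines was not tested. The TPM ratios were 0.970 in MKOC (95% counting interval 0.915 to 1.03) and 1.03 in TJ (0.978 to 1.09), and both intervals include a ratio of 1. After scaling to a median ratio of 1 in each line, the log2 ratios were 0.0038 and 0.095, so the signs no longer differed.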

How the results depend on the processing

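With the cell line as a block, 5 of the genes were called higher with rapamycin, and with no replicate block 1 was (*Pim1*), while the count over all genes called went from 4526 to 1275. RLE size factors, upper-quartile scaling and no filter each gave 5 genes, and DESeq2 and limma gave 4, without *Osmr*. *Stat3* changed sign with upper-quartile scaling, from -0.01 to 0.022, neither past the threshold. In TJ against MKOC the 2 genes called higher became 0 with DESeq2, 0 with limma and 0 without the treatment, and no filter added 1 lower gene (*Pim1*). The genes called over the whole table were 1139, against 622 with DESeq2, 469 with limma, 1753 with no filter and 0 without the treatment, where 478 were higher and 224 lower at an unadjusted p under 0.05. In the MEFs the 6 genes at least 2-fold higher became 2 with 5 TPM added (*Stat3*, *Lifr*; 14.3% of all genes), 3 after scaling to a median ratio of 1 (*Stat3*, *Lif*, *Lifr*; 15.8%), 3 on CPM (*Lif*, *Lifr*, *Osmr*; 15.3%), 5 without transcripts shorter than 300 bases (*Il6* in, *Il6ra* and *Pim1* out, 19.9%), and 7 with 0.1 (28.6%) or 0.5 TPM added (27.0%), where *Il6* joined. The cause of these shifts was not tested. Depth limits *Il6*, *Il11* and the kidney values of *Lifr*.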

Other observations

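The transcript makeup of 3 of the genes was compared across the libraries, without a test. ENSMUST00000127638, protein coding, made up between 68.2% and 78.0% of *Stat3* TPM in the 6 libraries. ENSMUST00000070731 held 50.7% to 64.9% of *Il6st* TPM and ENSMUST00000183663 held 31.6% to 40.9%, both protein coding. ENSMUST00000022746 held 83.0% of *Osmr* TPM in Tsc2-/- MEFs and 58.8% to 67.7% in the other 5 libraries.

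For the 6 genes with at least 1 TPM in all 6 libraries, genes with the most similar pattern over the libraries were sought among 10030 such genes. The measure was the Pearson correlation of log2(TPM + 1) over the 6 libraries, which does not compare how high the levels are. *Stat3* was followed most closely by *Pcbp1* (r = 0.999), *Emc3* (0.999) and *Sprtn* (0.998), and *Socs3* by *Agpat6* (0.996), *Ddt* (0.994) and *Ankrd44* (0.993). *Il6st* was nearest to *Smad3* (0.990), *Ikbke* (0.983) and *Foxo3* (0.979), and *Il6ra* to *Tkfc*, *Pdp1* and *Fam107b* (each 0.999). *Osmr* was nearest to *Pbxip1*, *Mmd* and *Mrgprc2-ps* (each 0.994), and *Pim1* to *Ssc4d* (0.996), *Inpp5e* (0.992) and *Leprot* (0.991). Between 20 genes (*Il6st*) and 389 genes (*Il6ra*) had a correlation above 0.95, and with 6 libraries of 2 cell types these values are a description only. Among the 6 genes themselves, *Il6ra* and *Pim1* were closest (0.91), followed by *Stat3* and *Socs3* (0.87), while *Osmr* and *Il6ra* had a correlation of -0.19.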
